A study of Mus musculus with 17 samples.

Results

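The 9 genes described here encode RNA-binding proteins that set how long cytokine mRNAs last: Zfp36, Zfp36l1, Zfp36l2, Zc3h12a, Zc3h12c, Rc3h1, Elavl1, Khsrp and Arid5a. They were chosen by symbol, and each symbol matched 1 of the 21683 rows of the expression table. All 9 also passed the filter on low values, at least 1 TPM (a relative abundance corrected for transcript length and library size) in at least 5 libraries, which left 10451 genes for testing. The table held bulk RNA-seq of thioglycollate-elicited peritoneal macrophages from C57BL/6 mice, 8 weeks old, in 17 libraries. Floxed IKKβF/F macrophages, which carry no Cre, received PBS in 6 libraries (floxed PBS) or the HIV protein Tat in 6 (floxed Tat), and IKKβΔMye macrophages received Tat in 5 (ΔMye Tat). The floxed gene is Ikbkb, which encodes IKKβ, the kinase that releases NF-κB. In ΔMye mice a heterozygous Cre recombinase is expressed from the LysM (Lyz2) locus and so acts across myeloid cells. Mice received 1 mL of 3% thioglycollate, cells were collected 3 days later according to the sample labels, and after 4 h of attachment they were exposed to 100 nM recombinant Tat or to PBS for 12 h. The study asked which Tat responses of macrophages depend on myeloid IKKβ. No library of ΔMye macrophages with PBS was used here, so a difference between the genotypes under Tat can include one that existed without Tat. The sample labels do not tie libraries to animals, but the study calls the RNA-seq replicates biological replicates of mice. The p-values are therefore taken to measure the spread between mice. Whether cells of the same mouse received both PBS and Tat is not stated, and the tests treat all libraries as independent.

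TPM values are relative within a library, and the sequencing depth is unknown. The median tested gene moved by −0.65 on the log2(TPM + 0.1) scale in floxed Tat against floxed PBS, by 0.22 in ΔMye Tat against floxed Tat and by −0.43 in ΔMye Tat against floxed PBS. The members' fold changes are therefore given as deposited and after median-ratio scaling between libraries, under which the same medians were −0.03, 0.01 and −0.01. All 9 macrophage markers were above 1 TPM in every group mean, and their sum ran from 25840 to 26853 TPM in floxed PBS, from 10325 to 10906 TPM in floxed Tat and from 8038 to 8358 TPM in ΔMye Tat, mostly Lyz2, the gene at the Cre locus. Lyz2 had means of 22382, 6993 and 4333 TPM, and most other markers did not follow it between the genotypes. As deposited, only Lyz2 and Fcgr1 were lower in ΔMye Tat than in floxed Tat. Adgre1, Csf1r, Cd68, Itgam, Mertk, Mrc1 and Cd14 were higher there, Cd14 for example at 1009 against 842 TPM. With Tat in floxed macrophages Cd14, Fcgr1 and Mertk rose as deposited and the others fell. These marker means were not scaled. The median tested gene itself moved by 0.22 and −0.65 in these comparisons, in that order, so small differences need not hold after scaling. An example is Adgre1, at 512 TPM in ΔMye Tat, 441 TPM in floxed Tat and 499 TPM in floxed PBS. Elane and Ngp of the neutrophil list were at 0 in every library, and the eosinophil and mesothelial lists, of 4 genes each, summed to at most 2.41 and 4.29 TPM in any library. Ikbkb itself was between 24.5 and 30.1 TPM in floxed PBS, between 21.6 and 25.4 TPM in floxed Tat and between 12.8 and 19.9 TPM in ΔMye Tat, a weak check of the labels because the deletion removes only part of the gene. Summed TPM of other cell types' markers moved with the groups as well: the neutrophil list ran from 51.8 to 59.0 in floxed PBS, from 64.5 to 77.3 in floxed Tat and from 87.0 to 104 in ΔMye Tat, nearly all of it S100a8. The NK cell list ran from 2.88 to 4.10, from 29.8 to 33.1 and from 14.6 to 20.1 TPM in the same order, nearly all of it Klrk1 in the Tat groups, while Ncr1 stayed under 1 TPM in every group mean. The T cell list ran from 4.55 to 10.47, from 5.09 to 6.06 and from 11.5 to 12.8 TPM, and the B cell list from 12.4 to 25.7, from 11.3 to 15.0 and from 8.33 to 13.0 TPM. Mast cell markers summed to between 24.0 and 45.4 TPM and fibroblast markers to between 12.6 and 29.0 TPM over all libraries, both with their lowest values in ΔMye Tat. The part of these cells in the results was not tested, and in bulk RNA fewer cells of a type and less RNA per cell cannot be told apart.

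Many cytokine mRNAs carry AU-rich elements or stem-loops in their 3′ untranslated regions (UTRs), and proteins that bind there decide whether the message is degraded or kept. Tristetraprolin (Zfp36) and its relatives Zfp36l1 and Zfp36l2 recruit deadenylases to AU-rich elements, KSRP (Khsrp) also promotes decay, and HuR (Elavl1) binds similar sequences and stabilises the message. Regnase-1 (Zc3h12a) is an endonuclease that cuts stem-loops, Regnase-3 (Zc3h12c) is a related nuclease, Roquin-1 (Rc3h1) binds stem-loops and recruits deadenylases, and Arid5a protects some of the same messages from Regnase-1. In macrophages these proteins form a feedback on inflammation, since the mRNAs of several of them are themselves induced by inflammatory signals and carry such elements.

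The members' own 3′ UTRs were searched for the pentamer ATTTA and for the nonamer TTATTTATT, the preferred site of the Zfp36 family, on the sense strand, with overlapping matches counted and with every nonamer also holding an ATTTA. In the basic GENCODE transcript with the longest 3′ UTR, all 9 members held an ATTTA and 5 held the nonamer, against 65.0% and 7.60% of all 3′ UTRs searched. The nonamer is a description of sequence and does not show binding. Length matters for such matches: among 3′ UTRs within 20% of the member's length, the nonamer was present in 4.00% for Zfp36, 9.87% for Zfp36l1, 9.88% for Zfp36l2, 27.2% for Rc3h1 and 17.9% for Elavl1. ATTTA was present in 64.3% of such 3′ UTRs for Zfp36, 67.7% for Zc3h12a and between 86.5% and 100% for the other members. Khsrp, with 1 pentamer, and Arid5a, with 2, were below the medians of 3 and 6 for their lengths, and the other members were above theirs. The 30-base stretches around the nonamer are shown because 3 of the 5 belong to the Zfp36 family, whose mRNAs moved in opposite directions with Tat, and 1 to its stabilising counterpart Elavl1. Capitals mark the nonamer, written as DNA of the transcript strand, 5′ to 3′.
Zfp36: tatgacgactTTATTTATTgtattaagatt
Zfp36l1: aactgttggaTTATTTATTttagaaattct
Zfp36l2: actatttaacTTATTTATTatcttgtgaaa
Rc3h1: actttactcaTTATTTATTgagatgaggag
Elavl1: aaTTATTTATTTATTTATTTATTtttattt
On GRCm38 these lie in the 3′ UTR at chr7:28376950-28376979 (minus strand), chr12:80108166-80108195 (minus), chr17:84184913-84184942 (minus), chr1:160970043-160970072 (plus) and chr8:4285779-4285808 (minus), in that order. Zfp36, Zfp36l1, Zfp36l2 and Rc3h1 had 1 nonamer each, and Elavl1 had 8, most of them overlapping, of which 1 stretch is shown. Zc3h12a, Zc3h12c, Khsrp and Arid5a had none, with 3, 14, 1 and 2 ATTTA pentamers in 3′ UTRs of 856, 4062, 1642 and 3826 bases. These 4 genes span chr4:125118423-125127840 (minus), chr9:52111344-52168572 (minus), chr17:57021051-57031522 (minus) and chr1:36307733-36324029 (plus) on GRCm38. The highest pentamer counts were 20 in Rc3h1 and 17 in Elavl1, which also have long 3′ UTRs of 7181 and 4218 bases.

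As deposited, Tat raised 3 members more than 3-fold and lowered 1 by as much: Zc3h12a, Arid5a and Zfp36 were higher in floxed Tat than in floxed PBS and Zfp36l2 was lower. After scaling the 3 rises stayed past 3-fold and the fall of Zfp36l2 passed the test but not that fold. Passing means an adjusted p under 0.01 in limma, with Benjamini-Hochberg adjustment over all 10451 genes. By that rule 4 members were higher (Zc3h12c in addition), 3 were lower (Zfp36l1 and Khsrp in addition) and 2 were neither, Rc3h1 and Elavl1, while 17% of all tested genes were higher and 67.6% lower. After scaling the counts were 6 higher, 1 lower and 2 neither, against 37.1% and 38.1% of all genes. With a fold change over 3 required as well, 3 were higher and 1 was lower, where 5.21% and 19.4% of all tested genes were. The groups did not overlap for 7 members, and did not for 77.6% of all tested genes. The members' median log2 fold change was 0.18, and 0.80 after scaling.

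**Figure D1:**
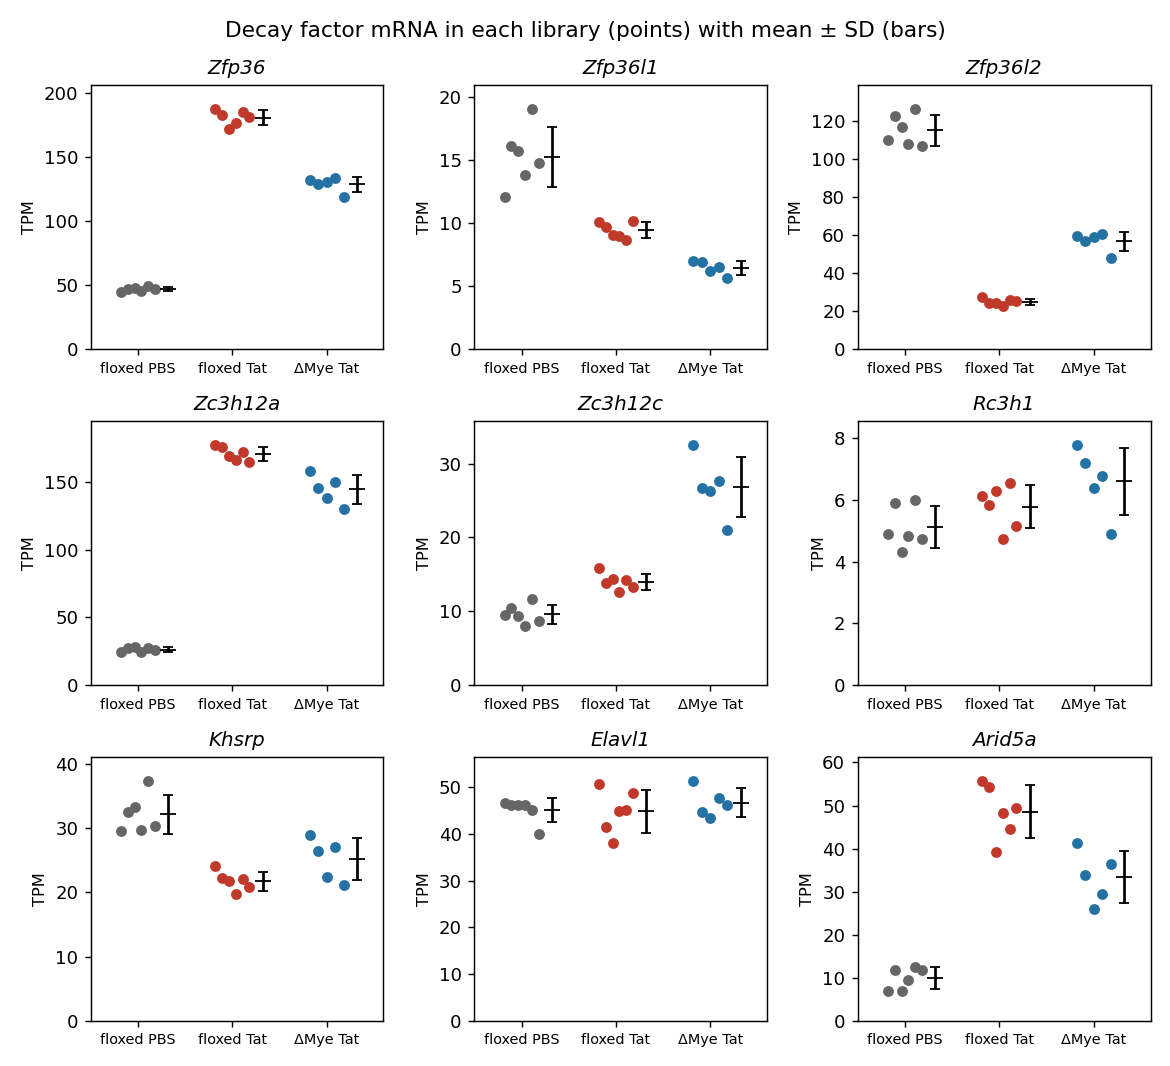
TPM of the 9 members in each of the 17 libraries, 1 panel per gene with a linear axis from 0; points are libraries, and the line and bar are the group mean and SD. Zfp36 lies between 172 and 188 TPM in floxed Tat, all above the 44.3 to 49.7 TPM of floxed PBS, while Zfp36l2 falls from between 107 and 126 TPM to between 22.9 and 27.5 TPM, with the ΔMye Tat libraries in between for both.

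Within the Zfp36 family the direction differed from gene to gene. Zfp36, an immediate response gene in macrophages, had a lowest, median and highest value of 44.3, 47.1 and 49.7 TPM in floxed PBS and of 172, 182 and 188 TPM in floxed Tat. Every Tat library was thus far above every PBS library, and the mean was 3.85 times as high (181 ± 5.65 TPM against 47.0 ± 1.85, SD, n = 6 each). The log2 fold change was 1.94 with an SE of 0.04 (limma adjusted p = 2.61e-20), and 2.58 after scaling. Zfp36l2, the most abundant family member without Tat, went the other way. Its lowest, median and highest values were 107, 114 and 126 TPM in floxed PBS and 22.9, 24.9 and 27.5 TPM in floxed Tat. Again the groups were far apart, with a log2 fold change of −2.20 (SE 0.06, limma adjusted p = 1.7e-17) and of −1.57 after scaling, and the PBS mean was 4.61 times the Tat mean. Zfp36l1 ran from 12.1 to 19.05 TPM with a median of 15.2 in floxed PBS and from 8.65 to 10.2 TPM with a median of 9.35 in floxed Tat. Its ranges were separate as deposited (log2 fold change −0.68, limma adjusted p = 7.55e-07), but after scaling the difference was −0.05 with a 95% interval of −0.21 to 0.11 (limma adjusted p = 0.549). Zfp36l1 is also the least certain row, since 60.0% of its 31-base stretches occur in other annotated transcripts, 53.2% in the antisense RNA Gm26669. The strand setting of the quantification is not given in the sources used here, so reads of the pair cannot be told apart.

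Both Regnase genes among the members rose with Tat, and Zc3h12a had the largest log2 fold change of the 9 members. Zc3h12a ran from 24.2 to 27.9 TPM with a median of 26.5 in floxed PBS and from 165 to 177 TPM in floxed Tat with a median of 170.3. There was no overlap, the mean rose 6.52-fold (171 ± 5.10 TPM against 26.2 ± 1.68), and the log2 fold change of 2.70 (SE 0.05, limma adjusted p = 1.79e-20; 3.33 after scaling) ranked 230 from the top of the 10451 tested genes. Zc3h12c was lower in level and in response. It had 7.94, 9.43 and 11.6 TPM as lowest, median and highest value in floxed PBS and 12.6, 14.01 and 15.8 TPM in floxed Tat, where the lowest Tat library was just above the highest PBS library. The log2 fold change was 0.55 (SE 0.10, limma adjusted p = 2.64e-05) and 1.18 after scaling.

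Arid5a, the factor that opposes Regnase-1 on some messages, rose with Zc3h12a. It ran from 6.99 to 12.6 TPM in floxed PBS with a median of 10.6, and from 39.2 to 55.8 TPM in floxed Tat with a median of 48.8. The groups were clearly apart although the libraries of each spread more than for Zfp36, with SDs of 2.51 TPM on a mean of 9.95 and 6.17 TPM on 48.6. The log2 fold change was 2.31 (SE 0.15, limma adjusted p = 1.73e-11) and 2.94 after scaling.

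Of the remaining members Elavl1 and Rc3h1 moved little as deposited, which is a rise against the median gene, and Khsrp moved with the median gene. Elavl1 had lowest, median and highest values of 39.9, 46.1 and 46.7 TPM in floxed PBS and of 38.2, 45.1 and 50.7 TPM in floxed Tat. The ranges overlapped and the log2 difference was −0.01 (95% interval −0.14 to 0.12, limma adjusted p = 0.884); after scaling, which sets the median tested gene near 0, it was 0.62 (limma adjusted p = 2.32e-08). Rc3h1, the least abundant member in both groups, ran from 4.32 to 6.01 TPM with a median of 4.86 in floxed PBS and from 4.75 to 6.56 TPM with a median of 5.98 in floxed Tat. These ranges overlapped too, at a log2 difference of 0.18 (95% interval −0.06 to 0.42, limma adjusted p = 0.154), or 0.80 after scaling (limma adjusted p = 2.7e-07). Khsrp ran from 29.5 to 37.3 TPM in floxed PBS with a median of 31.4, and from 19.7 to 24.0 TPM in floxed Tat with a median of 21.8. Its ranges did not overlap and its log2 fold change was −0.56 (SE 0.08, limma adjusted p = 1.1e-06), but 0.07 after scaling, with a 95% interval of −0.05 to 0.19 (limma adjusted p = 0.267). The members that passed in 1 direction both as deposited and after scaling were Zfp36, Zc3h12a, Zc3h12c and Arid5a, which rose, and Zfp36l2, which fell.

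**Figure D2:**
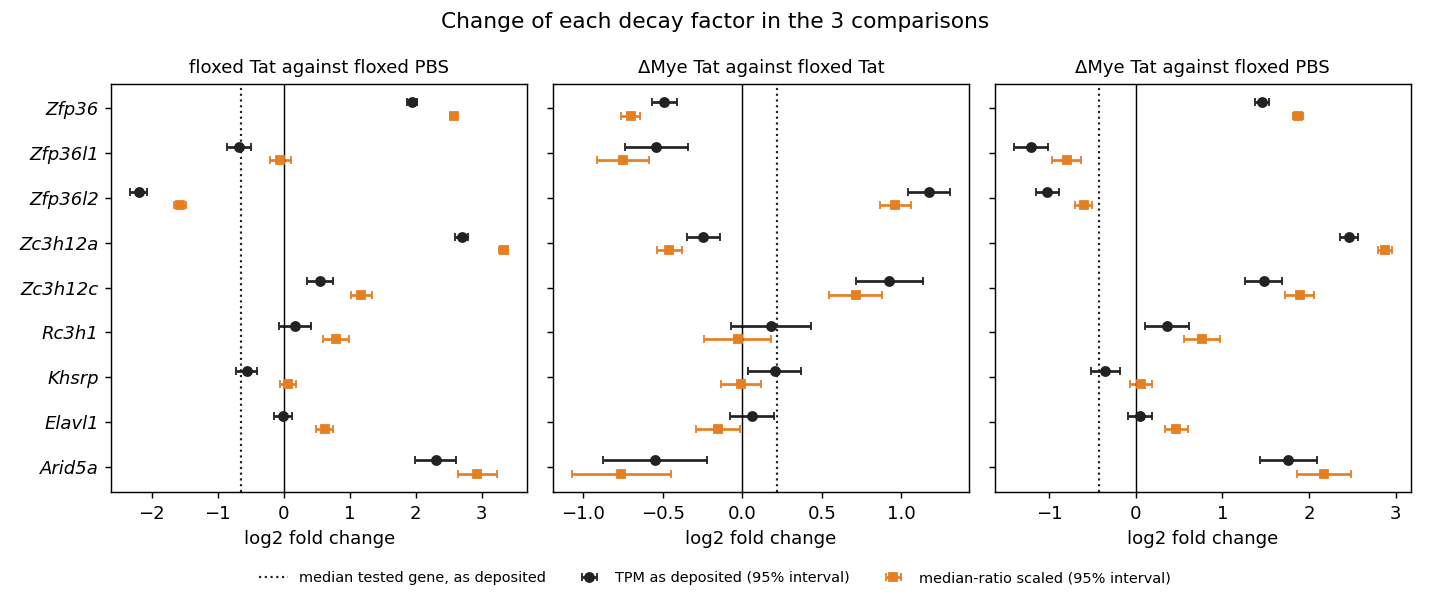
Log2 fold change of each member in the 3 comparisons, on the log2(TPM + 0.1) scale as deposited (black circles) and after median-ratio scaling (orange squares), with 95% intervals from limma; the dotted line is the median tested gene as deposited. In floxed Tat against floxed PBS Zc3h12a (2.70), Arid5a (2.31) and Zfp36 (1.94) lie to the right and Zfp36l2 (−2.20) to the left under both scalings, whereas Khsrp moves from −0.56 to 0.07.

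Under Tat, 6 of the 9 members differed between the genotypes, and for none of them did the difference reach 3-fold. The share of all tested genes past 3-fold was not computed for this comparison. Zfp36l2 and Zc3h12c were higher in ΔMye Tat than in floxed Tat, Zfp36, Zfp36l1, Zc3h12a and Arid5a were lower, and Rc3h1, Elavl1 and Khsrp did not pass. Of all tested genes 38.8% were higher and 8.87% lower; after scaling the members' counts were again 2 higher, 4 lower and 3 neither, against 16.4% and 18.8%. Ranges were separate for 5 members, and for 36.6% of all tested genes. This comparison and the one above share the floxed Tat libraries, so their values are given side by side and not correlated.

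Zfp36l2 had the largest difference of the 9 members. Its 5 ΔMye Tat libraries had 59.4, 56.8, 59.0, 60.7 and 48.0 TPM, all above the highest floxed Tat library at 27.5 TPM and all below the lowest floxed PBS library at 107 TPM. The mean was 2.27 times that of floxed Tat (56.8 ± 5.12 TPM, n = 5, against 25.0 ± 1.54, n = 6), a log2 difference of 1.18 (SE 0.06, limma adjusted p = 1.31e-11) and of 0.96 after scaling. Zfp36 had 132, 129, 130.4, 134 and 119 TPM in ΔMye Tat. All of these were below the lowest floxed Tat library at 172 TPM and above every PBS library, with a log2 difference from floxed Tat of −0.49 (SE 0.04, limma adjusted p = 1.84e-09; −0.70 after scaling). Zfp36l1 had 7.03, 6.89, 6.22, 6.51 and 5.68 TPM, below both other groups. The log2 difference from floxed Tat was −0.54 (SE 0.09, limma adjusted p = 7.5e-05), and −0.75 after scaling, with the uncertainty of this row named above.

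The Regnase genes separated in direction between the genotypes. Zc3h12a had 158, 146, 138, 150.3 and 130.2 TPM in ΔMye Tat, each under the lowest floxed Tat library at 165 TPM. The difference was small, a mean of 144 ± 10.9 TPM against 171 ± 5.10 and a log2 difference of −0.24 (SE 0.05, limma adjusted p = 0.000377; −0.46 after scaling). Zc3h12c had 32.5, 26.7, 26.4, 27.7 and 21.1 TPM, all above the highest floxed Tat library at 15.8 TPM. It was the only member with a higher mean in floxed Tat than in floxed PBS and a still higher one in ΔMye Tat among those that passed both tests, with a log2 difference of 0.93 (SE 0.10, limma adjusted p = 3.05e-07), 0.71 after scaling.

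Arid5a had 41.4, 33.9, 25.9, 29.5 and 36.5 TPM in ΔMye Tat, and the highest of these was above the lowest floxed Tat library at 39.2 TPM. The groups thus overlapped, with a log2 difference of −0.55 (SE 0.16, limma adjusted p = 0.00561) and −0.76 after scaling. The call as deposited rests on single libraries: without any 1 of 6 libraries (floxed Tat 7, 8 or 12, ΔMye Tat 20, 21 or 22) the limma adjusted p was between 0.0102 and 0.0210, at a log2 difference between −0.56 and −0.46. Rc3h1 had 7.80, 7.22, 6.38, 6.78 and 4.90 TPM, Elavl1 51.4, 44.7, 43.3, 47.7 and 46.2 TPM and Khsrp 28.9, 26.4, 22.4, 27.0 and 21.2 TPM. All 3 overlapped floxed Tat, with log2 differences of 0.18 (95% interval −0.07 to 0.43), 0.06 (−0.08 to 0.20) and 0.20 (0.04 to 0.37) as deposited and −0.03, −0.15 and −0.01 after scaling. Khsrp came closest to passing (limma adjusted p = 0.0344) and passed at 0.00627 without ΔMye Tat library 23. As deposited, that library had the lowest value of its group for 7 of the 9 members. Its scaling factor was also the lowest of its group, at 0.895 with the others between 0.956 and 1.008. After scaling it was no longer the lowest for Zfp36, Zc3h12a and Khsrp. Without library 23 all 6 calls of this comparison were kept.

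Against floxed PBS, ΔMye Tat macrophages had Zc3h12a and Arid5a more than 3-fold higher as deposited, and Zfp36 and Zc3h12c as well after scaling. The share of all tested genes past 3-fold was not computed here, so these cannot be set against it. Without the fold threshold the counts were 4 higher, 3 lower and 2 neither, against 17.5% and 58.8% of all tested genes. After scaling they were 6 higher, 2 lower and 1 neither, against 34% and 33.7%. The ranges were separate for 7 members and for 67.7% of all tested genes. Zc3h12a was 5.52-fold higher, a log2 difference of 2.46 (limma adjusted p = 3.05e-19; 2.88 after scaling), and Arid5a 3.36-fold higher, a log2 difference of 1.76 (limma adjusted p = 3.74e-09; 2.18 after scaling). Zfp36 followed at 2.75-fold and Zc3h12c at 2.81-fold, with log2 differences after scaling of 1.87 and 1.89. On the lower side were Zfp36l1 at −1.22, Zfp36l2 at −1.02 and Khsrp at −0.36 on the log2 scale, which after scaling were at −0.80, −0.60 and 0.06, the last not passing. Rc3h1 (0.36, limma adjusted p = 0.0104) and Elavl1 (0.05, limma adjusted p = 0.481) did not pass as deposited and did after scaling, at 0.77 and 0.47.

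Shares within a library do not depend on the scaling between libraries, and they describe the makeup of the Zfp36 family in each group. Zfp36 made up 26.5% ± 0.968 of the TPM of its 3 family members in floxed PBS, 84.0% ± 0.522 in floxed Tat and 67.1% ± 1.01 in ΔMye Tat (SD, n = 6, 6 and 5). Zfp36l2 made up 64.9%, 11.6% and 29.5% of the family in the same order, while Zfp36l1 was at 8.56%, 4.38% and 3.36%. The summed TPM of the family was 177 ± 11.8 TPM in floxed PBS, 215 ± 7.11 in floxed Tat and 192 ± 11.4 in ΔMye Tat as deposited. Unlike the shares it depends on the scaling, and after median-ratio scaling it was 138 ± 5.74, 260.2 ± 5.85 and 200.1 ± 5.67. No library of one group reached the Zfp36 share of another: the ranges were 25.4 to 27.9%, 83.3 to 84.7% and 66.6 to 68.9%. All 3 differences had the smallest p the exact two-sided permutation test allows at these sizes (0.00216 for floxed Tat against floxed PBS, 0.00433 for the other 2; 0.00577 after adjustment over 12 such tests).

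Zc3h12a made up 73.3% ± 1.97 of the Regnase pair Zc3h12a and Zc3h12c in floxed PBS, 92.4% ± 0.409 in floxed Tat and 84.4% ± 1.13 in ΔMye Tat. These groups did not overlap either, with an adjusted exact permutation p of 0.00577 for each of the 3 differences. The log2 ratio of Zfp36 to Elavl1, a destabilising against a stabilising binder of AU-rich elements, was 0.06 ± 0.11 in floxed PBS, 2.02 ± 0.12 in floxed Tat and 1.47 ± 0.10 in ΔMye Tat. Again no ranges overlapped (adjusted exact permutation p = 0.00577 for each). The log2 ratio of Zc3h12a to Arid5a, the nuclease against its opponent, moved far less: 1.43 ± 0.37, 1.82 ± 0.17 and 2.13 ± 0.25 in the same order. Its differences were 0.39 for floxed Tat against floxed PBS (exact permutation p = 0.0476, adjusted 0.0519), 0.30 for ΔMye Tat against floxed Tat (p = 0.0563, adjusted 0.0563 in the exact test) and 0.69 for ΔMye Tat against floxed PBS (exact p = 0.0173, adjusted 0.0208), and the groups overlapped in each.

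**Figure D3:**
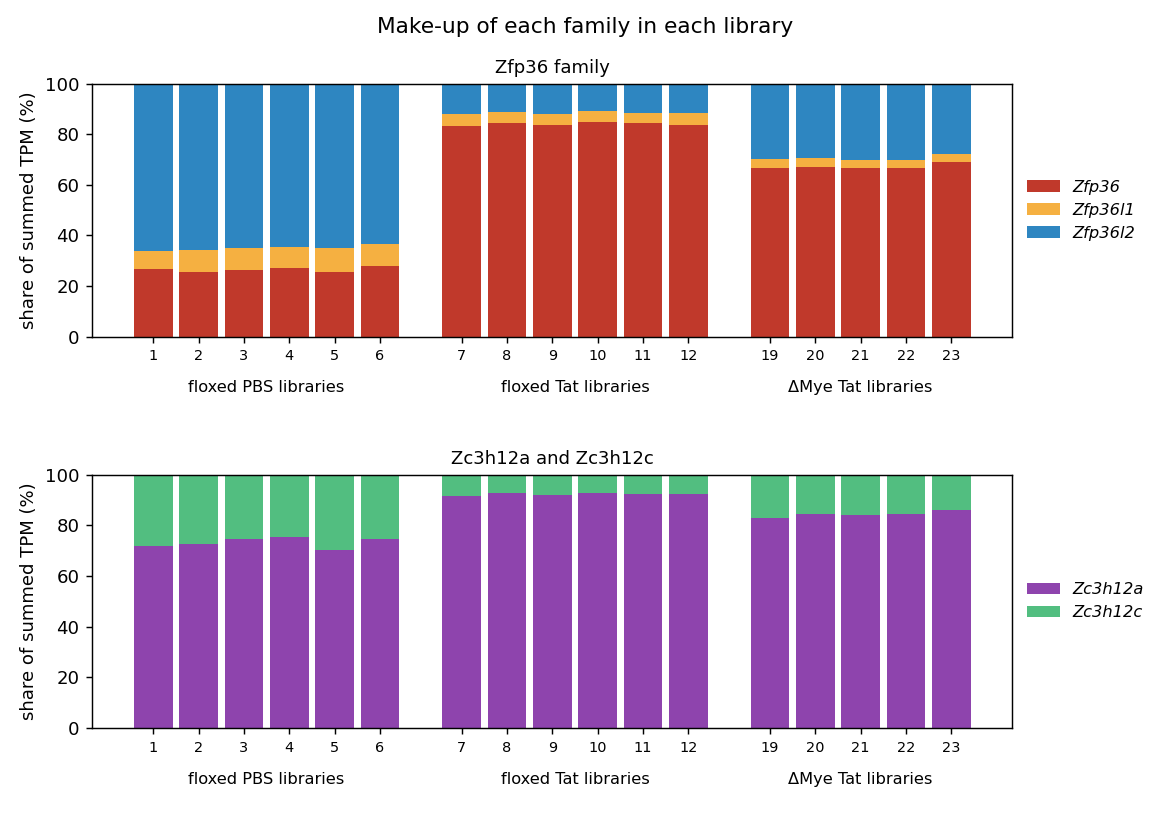
Stacked bars, 1 per library, of each gene's share (%) of the summed TPM of its family, for Zfp36, Zfp36l1 and Zfp36l2 above and for Zc3h12a and Zc3h12c below; libraries are set out by group. The Zfp36 part covers 25.4 to 27.9% of the bar in floxed PBS, 83.3 to 84.7% in floxed Tat and 66.6 to 68.9% in ΔMye Tat.

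The order of the levels, which TPM allows because it is per length, changed with these moves. In floxed PBS it was Zfp36l2, Zfp36, Elavl1, Khsrp, Zc3h12a, Zfp36l1, Arid5a, Zc3h12c and Rc3h1, and the neighbours whose ranges overlapped were Zfp36 with Elavl1, Zfp36l1 with Arid5a and Arid5a with Zc3h12c. In floxed Tat Zfp36 and Zc3h12a led with overlapping ranges, followed by Arid5a and Elavl1, which overlapped, Zfp36l2 and Khsrp, which overlapped, and then Zc3h12c, Zfp36l1 and Rc3h1, each separate. In ΔMye Tat Zc3h12a and Zfp36 overlapped at the top, Zfp36l2 and Elavl1 overlapped next, Arid5a, Zc3h12c and Khsrp overlapped from neighbour to neighbour, and Rc3h1 and Zfp36l1 overlapped at the bottom. Zfp36l2 thus held the first place in floxed PBS, the fifth in floxed Tat and the third in ΔMye Tat.

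The genes whose pattern was most like that of Zc3h12a over the 17 libraries were Igtp, Pde4b and Nfkb2. Their root mean square differences from it, on centred log2(TPM + 0.1) values, were 0.0851, 0.0896 and 0.0924, where the median over all tested genes was 1.53. For Zfp36l2 the nearest were Adcy7, Shtn1 and Bhlhe41, at 0.114, 0.115 and 0.121 against a median of 0.728. All 3 of the latter were lowest in floxed Tat and intermediate in ΔMye Tat, Bhlhe41 for example with means of 69.4, 17.5 and 38.4 TPM in floxed PBS, floxed Tat and ΔMye Tat.

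In their 250 bases before the RefSeq start (GRCm38.p6), 8 members had a window to search for motifs of inflammatory transcription factors, on both strands. A match to the NF-κB motif was present in Zc3h12c alone. TGANTCA, a pattern wider than the AP-1 motif because it takes any middle base, was in Rc3h1 (as TGACTCA) and Zfp36l1 (as TGATTCA). Of these 2 only the match in Rc3h1 is the AP-1 motif itself. TGACGTCA was in none. Of all 32851 windows, 7.25%, 6.75% and 1.55% held these motifs.

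Around these factors stands the machinery they recruit, the kinases that control them and the messages they bind, given here as 6 lists with 105 genes. Fold changes of their genes are as deposited, and each named gene that did not pass after scaling is given as such. The counts stand beside the shares of all tested genes. With Tat 17% were higher and 67.6% lower, or 37.1% and 38.1% after scaling. In ΔMye Tat against floxed Tat 38.8% were higher and 8.87% lower, or 16.4% and 18.8% after scaling. Whether a list differs from these shares was not tested. Of 13 tested genes among 19 other RNA-binding proteins of this kind, 4 were higher and 6 lower with Tat (median log2 fold change −0.19, against −0.65 for all tested genes), and 8 and 1 after scaling. Samd4b (0.86) and Fubp1 (0.41) rose most, and Hnrnpl fell from 130.1 to 40.2 TPM (−1.70) with Tia1 at −1.02, the last not passing after scaling (−0.40). Between the genotypes under Tat 3 were higher in ΔMye Tat and 0 lower in limma as deposited, and 1 and 2 after scaling. Among those 3 were Hnrnpl (0.59) and Zc3h12d (0.51), the latter a further Regnase, at 2.13 TPM in floxed PBS, 1.18 TPM in floxed Tat and 1.71 TPM in ΔMye Tat. Zc3h12d fell with Tat as deposited (−0.81, limma adjusted p = 3.39e-06) but did not pass after scaling in either comparison (−0.22 and 0.31, limma adjusted p = 0.0907 and 0.0425).

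Deadenylases shorten the poly(A) tail, and of their 20 genes 3 were higher and 12 lower with Tat (median −0.49), or 8 and 3 after scaling. Btg1 and Btg2, adaptors of the CCR4-NOT complex, rose by 0.70 and 0.61, while Parn (−1.73) and Tob1 (−1.65) fell. Under Tat, ΔMye macrophages had Parn (0.39) and Btg1 (0.36) higher than floxed ones, and 18 of 20 did not pass. After scaling Parn (0.18, limma adjusted p = 0.116) did not pass, and 1 gene was higher and 1 lower. Of 15 decapping and 5′-3′ decay genes, 4 rose and 8 fell with Tat (median −0.42), or 7 and 3 after scaling. Dcp2, the decapping enzyme, rose from 22.1 to 68.6 TPM (1.64, limma adjusted p = 1.56e-11) and the exonuclease Xrn1 from 5.19 to 10.1 TPM (0.96), whereas the ring subunits Lsm5 (−1.44) and Lsm7 (−1.385) fell. Dcp2 was lower in ΔMye Tat than in floxed Tat, at 48.1 TPM (−0.52, limma adjusted p = 0.000529), and Dcp1b (0.38) and Lsm2 (0.31) were higher as deposited but did not pass after scaling. The RNA exosome, which degrades from the 3′ end, had 0 of 14 tested genes higher and 12 lower with Tat by limma (median −0.71), but 4 higher and 5 lower after scaling. Exosc5 fell from 35.1 to 5.38 TPM (−2.70; −2.07 after scaling) and Dis3, at means under 2 TPM, had −1.98. In ΔMye Tat 7 exosome genes were higher than in floxed Tat, among them Dis3 (1.16) and Exosc7 (0.57), neither of which passed after scaling (1.02 and 0.36, limma adjusted p = 0.0292 and 0.0133). After scaling 2 passed, Exosc2 (0.23) and Dis3l (0.33), named here after their values were seen.

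Of the 15 regulators of the decay factors, 8 rose and 2 fell with Tat (median 0.27), or 13 and 1 after scaling. Mapk14, which encodes the kinase p38α upstream of the phosphorylation that inactivates tristetraprolin, fell from 52.7 ± 3.42 to 5.13 ± 0.411 TPM, a log2 fold change of −3.34 (limma adjusted p = 9.89e-21; −2.71 after scaling). Malt1, a protease known to cleave Regnase-1, rose from 34.75 to 171.5 TPM (2.30), and Dusp1, the phosphatase of p38, from 30.9 to 71.9 TPM (1.22). Btrc, part of a ubiquitin ligase, was at −0.72 as deposited and did not pass after scaling (−0.10). Between the genotypes 5 regulators were higher in ΔMye Tat and 3 lower, or 3 and 8 after scaling. Mapk14 was higher in ΔMye Tat, at 17.1 ± 0.567 TPM (1.72, limma adjusted p = 2.59e-14), as was its partner kinase Mapkapk2 (0.40), while Dusp1 (−0.30) and the deleted Ikbkb (−0.51) were lower.

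The list of 21 target mRNAs had 19 higher and 2 lower with Tat (median 5.56; 6.14 after scaling), beside −0.65 and −0.03 for all tested genes. Il6 (8.47) and Ptgs2 (8.14) rose most, and Tfrc (−2.40) and Vegfa (−1.96) were the 2 that fell. In ΔMye Tat against floxed Tat 2 were higher and 15 lower (median −0.66), or 1 and 16 after scaling. Csf3 was at 50.9 TPM against 363.5 (−2.84) and Il10 at 1.90 TPM against 11.9 (−2.59), whereas Il12b (0.70) was higher under both scalings and Tnf was at 0.31 as deposited and at 0.10 after scaling, where it did not pass.

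**Figure D4:**
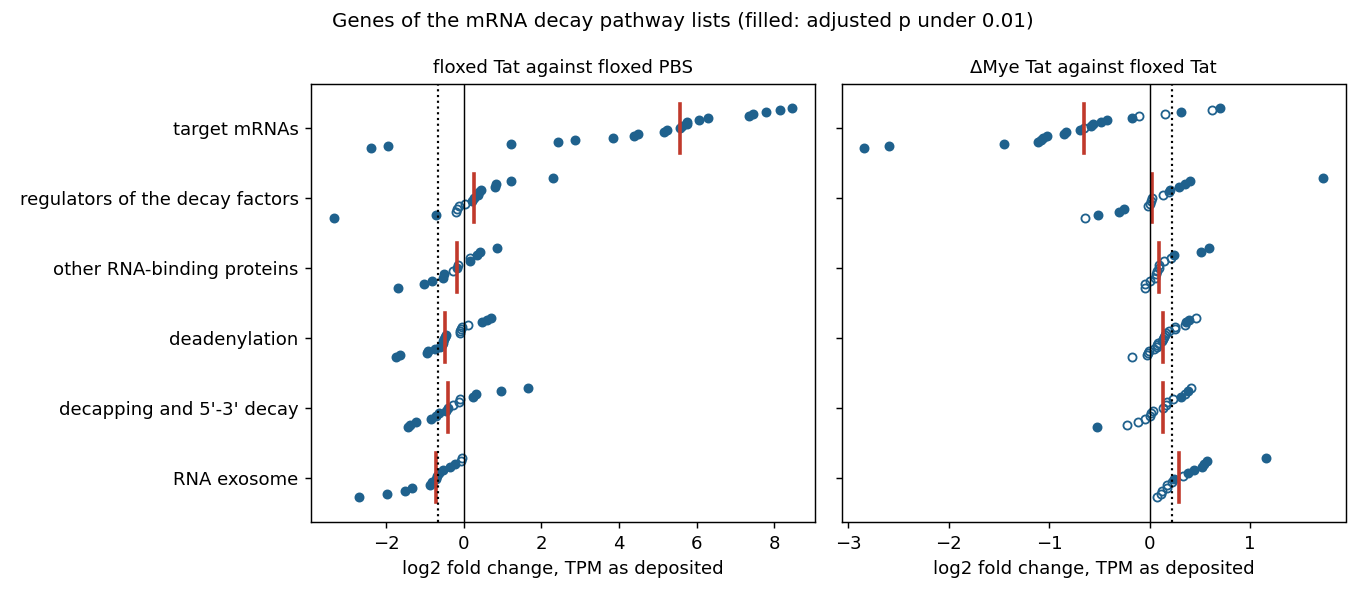
Log2 fold change of every tested gene of the 6 lists, as deposited, in floxed Tat against floxed PBS and in ΔMye Tat against floxed Tat; each point is a gene, filled where its limma adjusted p was under 0.01, red bars are list medians and the dotted line is the median of all tested genes. The target mRNAs have a median of 5.56 with Tat and of −0.66 in ΔMye Tat against floxed Tat, and the exosome median of −0.71 with Tat lies close to the −0.65 of all tested genes.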

How the data were processed

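RNA-seq libraries of peritoneal macrophages were quantified by the authors with Salmon on GRCm38 transcripts of Ensembl, and the table they deposited holds TPM per gene. The versions and the strand setting are not given in the sources used here. The authors' own test was edgeR on counts, which were not analysed here, so it was not repeated. The table's TPM sum to between 889318 and 903576 per library, and the number of reads behind a value is unknown. The 9 members and the 6 gene lists were chosen with earlier results of these data known.

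Groups were taken from the sample labels. A further allele that all groups share is not reported here. log2(TPM + 0.1) of 10451 genes (at least 1 TPM in at least 5 of 17 libraries) was fitted with limma 3.58.1 (R 4.3.3) over 3 groups, with eBayes(trend=TRUE), 14 residual degrees of freedom and Benjamini-Hochberg adjustment over all tested genes. The fit was tested on simulated data. A gene passed at an adjusted p under 0.01; the study's further threshold was a fold change over 3. Fold changes are on the log2(TPM + 0.1) scale and understate the change of low genes. Median-ratio scaling used the 11246 genes above 0 in every library. Shares and ratios within a library were put to 12 exact permutation tests, all two-sided (scipy 1.17.1). Under alternatives their threshold was an unadjusted p under 0.05. Named genes were the members, Ikbkb, up to 2 genes with the highest and up to 2 with the lowest log2 fold change among those that passed in each list for floxed Tat against floxed PBS and for ΔMye Tat against floxed Tat, and the 3 genes nearest in pattern to the member with the largest absolute log2 fold change in each of these comparisons. Marker genes were named besides. Sequences of 3′ UTRs came from GENCODE transcripts and promoter windows from RefSeq (GRCm38.p6), which held none for Zfp36l2. Alternatives were other pseudocounts, filters, scalings, variance models and thresholds, a rank test, and leaving out each library.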

Additional observations from a re-analysis of the deposited data

Results flagged for a closer look

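Of 39 groups of libraries tested for a value far from the others, 2 had one, where chance gives about 1 in 20. Elavl1 was at 39.9 TPM in floxed PBS library 6, and the nearest of the other 5 libraries was at 45.2 TPM, a gap of 0.781 of the group's range. The Zfp36 share of its family was 68.9% in ΔMye Tat library 23, and the nearest of the other 4 libraries was at 67.0%, a gap of 0.818 of the range. Without that library the difference in this share between ΔMye Tat and floxed Tat was −17.3 percentage points, against −16.9 with it (exact permutation p = 0.00952 and 0.00433, the smallest possible in each case). Both are values of a single library, and the cause was not tested.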

How the results depend on the processing

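Of 702 single-member values under alternatives, 660 kept their direction and their side of the threshold. A change of sign was counted first, in 12 values. Of those that kept their sign, 17 no longer passed and 13 newly passed. Fits with a library left out made up 445 of the 660, and those that left out a library of the group not compared kept their fold change. Median-ratio scaling kept 17 values and quantile normalization 18, where all 27 were kept with only the 2 groups compared. The number of members lower in floxed Tat than in floxed PBS was 1 in place of 3 after median-ratio scaling, after quantile normalization and with a fold change over 3 required. In ΔMye Tat against floxed Tat 0 members were higher and 0 lower with a fold change over 3, where limma alone passed 2 and 4. The exact Wilcoxon test also passed 0 members and 0 genes there, though 5656 had an unadjusted p under 0.05. Its smallest possible p at 5 against 6 libraries is 0.00433, which came to 0.0118 after adjustment. Even a member with fully separate ranges therefore could not pass, and the 0 says nothing further on the limma calls. This test gave 6 of the 17 values above that no longer passed. In ΔMye Tat against floxed PBS 2 were higher and 0 lower with a fold change over 3. The share of all tested genes past that fold was computed only for floxed Tat against floxed PBS, as deposited. Sign changes were confined to Elavl1, Khsrp and Rc3h1, and some of them also crossed the threshold. Elavl1 newly passed in floxed Tat against floxed PBS after median-ratio scaling and after quantile normalization. Khsrp no longer passed after median-ratio scaling, there and in ΔMye Tat against floxed PBS. In floxed Tat against floxed PBS Elavl1 was at 0.62 after median-ratio scaling, 0.31 after quantile normalization, and 0.00073, 0.012 and 0.036 without floxed PBS library 1, floxed Tat library 8 and floxed Tat library 9 (range −0.047 to 0.036 over all libraries left out), and Khsrp was at 0.070 after median-ratio scaling. In ΔMye Tat against floxed Tat median-ratio scaling gave −0.028 for Rc3h1, −0.15 for Elavl1 and −0.0080 for Khsrp, and quantile normalization gave −0.066 for Rc3h1 and −0.066 for Elavl1. Khsrp in ΔMye Tat against floxed PBS was at 0.062 after median-ratio scaling. Rc3h1 in ΔMye Tat against floxed PBS passed limma without floxed PBS library 2 or 5, floxed Tat library 10 or ΔMye Tat library 23, at an adjusted p between 0.000899 and 0.00851. Arid5a in ΔMye Tat against floxed Tat was at a limma adjusted p of 0.0120 with no filter.

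The log2 ratio of Zc3h12a to Arid5a in floxed Tat against floxed PBS was 0.49 by medians (exact permutation p = 0.0606), and 0.33 to 0.50 with single libraries left out (largest exact p = 0.0952). In ΔMye Tat against floxed Tat it was 0.23 to 0.38 with single libraries left out, with an exact permutation p of 0.0238, 0.0476 and 0.0476 without floxed Tat library 9, ΔMye Tat library 19 and ΔMye Tat library 23. The Zfp36 and Zc3h12a shares and the ratio of Zfp36 to Elavl1 kept their direction and an unadjusted exact permutation p under 0.05 under every alternative run. With single libraries left out the largest such p was 0.00952, the smallest possible once a ΔMye Tat library was left out. Because the groups did not overlap for these measures, leaving out a library had to give the smallest possible p again. The cause of these changes was not tested. No paired analysis was made, because the labels do not tie libraries to mice. Whether cells of the same mouse received PBS in one library and Tat in another is not known. TPM carry no depth, so counting error at the level of Rc3h1 cannot be given.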
